A study of Mus musculus and Homo sapiens with 22 samples.

Results

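MDA-MB-231, a human triple-negative breast cancer cell line, was exposed for 24 h to ENMD-2076 at 5 µM or to TAK901 at 2 µM, the higher of the doses given for each compound, and the transcriptomes of the treated cells were set against each other. The comparison used the 4 libraries that the labels place in these groups, 2 per compound, of 22 libraries in the series. Another 6 libraries of the same line entered the statistical fit and served as points of reference: ENMD-2076 at 2.5 µM, TAK901 at 1 µM and DMSO, with 2 libraries each. All cells were plated 24 h before treatment, and polyadenylation or other selection of the total RNA before sequencing is not given in the sources used here. The doses of the compounds were not equal, so every difference below is one between ENMD-2076 at its dose and TAK901 at its own. MDA-MB-231 is a single tumour-derived line, and the labels do not say whether replicates were separate cultures, so the p-values speak of how much these libraries vary, which could be technical variation alone.

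Both compounds are known as small-molecule inhibitors of Aurora kinases. Aurora A acts at centrosomes and spindle poles, where it drives centrosome maturation and the building of a bipolar spindle. Aurora B is the kinase of the chromosomal passenger complex, which corrects faulty attachments of chromosomes to the spindle and is needed for cytokinesis. Inhibition of these kinases is known to disturb mitosis and can leave cells with extra copies of the genome. ENMD-2076 and TAK901 are each also known to act on kinases outside the Aurora family. The question of the comparison was which transcripts separated the compounds.

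Genes are given by the human Ensembl IDs of the deposited tables, which do not pair IDs with names, and no human name table was used here. The line's own markers and gene lists written as symbols were therefore not analysed here. The value of any gene that shares reads with a near-identical or overlapping one is uncertain, since the counting of such reads is not given in the sources used here.

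The 10 MDA-MB-231 libraries held 13.4 to 24.0 M reads in genes, with 13.5 and 23.9 M for ENMD-2076 5 µM and 13.9 and 14.9 M for TAK901 2 µM. A count of 0 reads allows a level of up to 0.124 to 0.227 CPM per library (CPM, the reads of a gene scaled to a fixed library total), counting error only. The TAK901 2 µM libraries stood apart from each other. Chi-square per degree of freedom between their counts, larger for less alike libraries, was 54.2. It was 4.43 to 8.12 within the other groups. Between TAK901 2 µM replicate 2 and the ENMD-2076 5 µM libraries it was 32.6 and 40.1, below that within TAK901 2 µM. For TAK901 2 µM replicate 1 these values were 76.5 and 94.8. Replicate 2 was also closer to the TAK901 1 µM libraries (17.5 and 16.3) than to replicate 1. The median absolute log2 difference between replicates, over the genes tested, was 0.136 for ENMD-2076 5 µM and 0.306 for TAK901 2 µM, and it lay between 0.131 and 0.188 in the other groups. Of the genes with a mean of at least 10 CPM, 1 of 9485 differed over 2-fold between the ENMD-2076 5 µM libraries, against 331 of 9532, or 3.47%, between the TAK901 2 µM libraries. The 100 genes with the most reads took 24.2% of reads in TAK901 2 µM replicate 1 and 18.5% to 20.0% in the 9 other libraries. The count of genes called between the compounds is therefore also given without each of these libraries. The counts by size of difference, by read level and by closeness to DMSO are not. Neither are the counts of genes that met the naming rule or were called in both dose pairs.

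**Figure D1:**
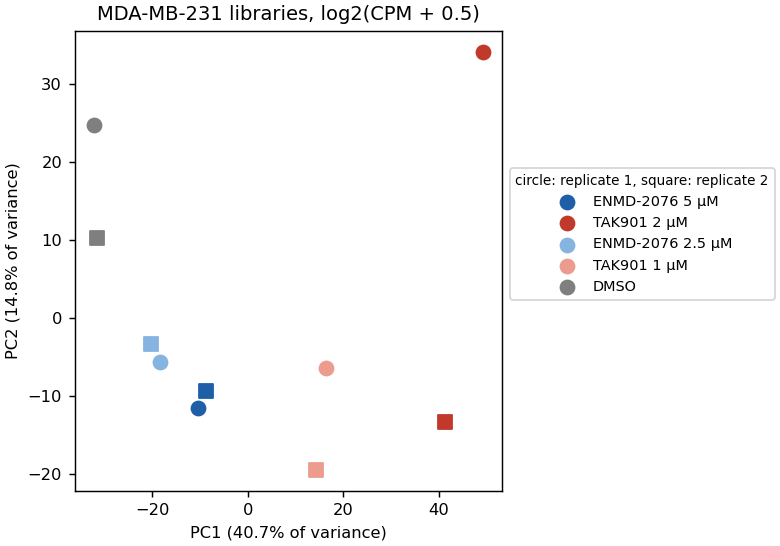
First and second principal components of log2(CPM + 0.5) over the genes tested, with 1 point per MDA-MB-231 library, circles for replicate 1 and squares for replicate 2. On the first component, which held 40.7% of the variance, the ENMD-2076 5 µM libraries lay at -10.4 and -8.77, the TAK901 2 µM libraries at 49.3 and 41.4 and the DMSO libraries at -32.2 and -31.5, while the second separated the TAK901 2 µM replicates (34.1 and -13.3).

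On the first principal component, the TAK901 2 µM libraries lay farther from DMSO than the ENMD-2076 5 µM libraries did. The TAK901 1 µM libraries, at 16.3 and 14.2, also lay farther from DMSO than ENMD-2076 5 µM. On the second component, with 14.8% of the variance, the ENMD-2076 5 µM libraries were close together at -11.6 and -9.34.

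Between ENMD-2076 5 µM and TAK901 2 µM, 2572 of 14826 genes tested passed an adjusted p of 0.05 in edgeR's quasi-likelihood test with Benjamini-Hochberg adjustment, which is 17.3% of the genes. Of these, 1477 genes (9.96%) were higher with ENMD-2076 and 1095 (7.39%) were lower. Most differences were small, and the median absolute log2 fold change was 0.707 over the genes that passed and 0.331 over all genes tested. More than 2-fold differences were found for 299 of the higher genes and 344 of the lower genes. More than 4-fold differences were found for 34 of the higher genes and 101 of the lower genes, so in this fit these were mostly in genes lower with ENMD-2076. The median size of a called difference was largest among genes with few reads, described below, where most called genes were lower. The counts by size were not taken without each TAK901 2 µM library. At an unadjusted p under 0.05 there were 4784 genes. In 8141 genes (54.9%), both libraries of one compound lay above both libraries of the other, whether or not the gene passed the test.

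The counts depended on the replicates. Leaving out a library of a compared group leaves 1 library there, and that group then adds nothing to the estimate of spread. Agreement between such fits is therefore no test of the spread within the group. The fit of all 10 libraries pools the spread of TAK901 2 µM with that of groups whose replicates differed less. Without TAK901 2 µM replicate 1 the test called 2926 genes, of which 1756 were higher and 1170 lower with ENMD-2076. Without TAK901 2 µM replicate 2 it called 4612 genes, 2494 higher and 2118 lower. It called 861 genes when ENMD-2076 5 µM replicate 1 was left out, and 883 when replicate 2 was. In a fit of the 4 compared libraries alone, 668 genes passed, 450 higher and 218 lower, and each of the 668 was among the 2572 genes. A set of 1715 genes, or 66.7% of the 2572, was called the same way both without TAK901 2 µM replicate 1 and without replicate 2, with 1178 genes higher and 537 lower. A smaller set of 662 genes, or 25.7%, was called the same way without each of the 4 libraries in turn, with 509 higher and 153 lower.

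**Figure D2:**
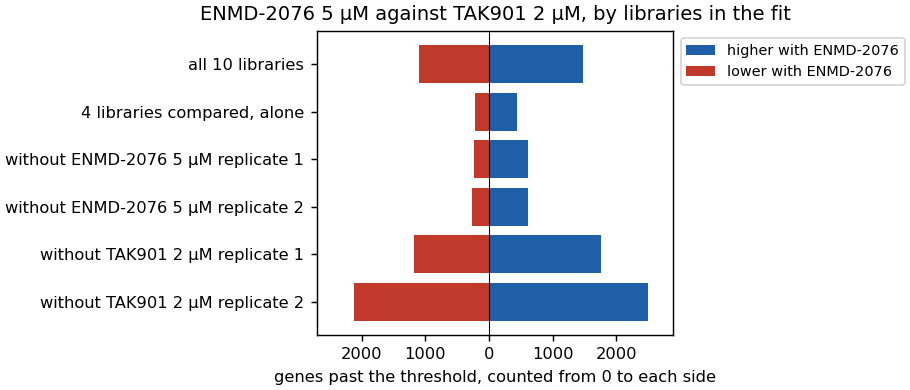
Number of genes past an adjusted p of 0.05 between ENMD-2076 5 µM and TAK901 2 µM (horizontal axis, genes; higher with ENMD-2076 to the right of 0, lower to the left) with all 10 libraries in the fit, with the 4 compared libraries alone, and without each of these 4 in turn. The count was 2572 with all libraries, 668 with the 4 alone, 861 and 883 without an ENMD-2076 5 µM library, and 2926 and 4612 without a TAK901 2 µM library.

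The direction of the differences varied with the number of reads of a gene. The genes were divided into 4 classes of equal size by mean CPM over the 10 libraries, a measure of reads that is not corrected for gene length. In the class with the fewest reads, from 0.184 to 3.85 CPM, 42 genes were higher and 137 lower with ENMD-2076, so that 23.5% of the 179 called genes were higher. In the next class, up to 22.6 CPM, 262 genes were higher and 317 lower. In the class up to 64.7 CPM, 441 genes were higher and 355 lower. In the class with the most reads, 732 genes were higher and 286 lower with ENMD-2076, so that 71.9% of the 1018 called genes were higher. The share of genes called was 4.83%, 15.6%, 21.5% and 27.5% from the lowest to the highest class, while the median absolute log2 fold change of the called genes was 2.22, 0.95, 0.65 and 0.58. Genes with more reads are measured more precisely, so smaller differences can pass the test there. The low-count filter can keep a gene for its reads in a single group. The classes were also cut on a mean that includes the compared libraries. In the lowest class the filter and the cut can thus set the direction of a called gene, so the counts there are no test. The part that the uneven share of reads taken by the top 100 genes in TAK901 2 µM replicate 1 has in this pattern was not tested.

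**Figure D3:**
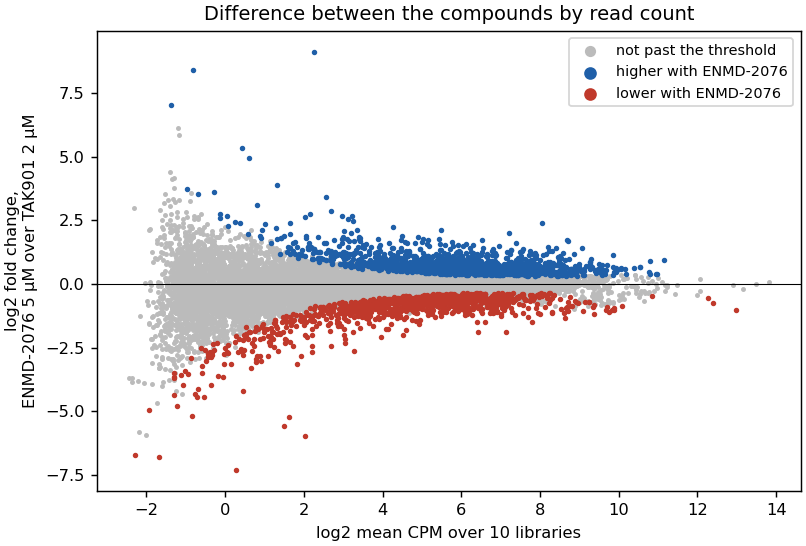
log2 fold change of ENMD-2076 5 µM over TAK901 2 µM (vertical axis) against log2 mean CPM over the 10 libraries (horizontal axis), 1 point per gene tested, coloured where the gene passed an adjusted p of 0.05. Points lower with ENMD-2076 dominate among the called genes at few reads (137 of 179 in the lowest class), and points higher with ENMD-2076 at many reads (732 of 1018 in the highest class). Genes at few reads can have passed the low-count filter only through the group where they were high.

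Individual IDs are given for the 2 largest differences in each direction among the genes that passed the test, differed at least 2-fold without overlap of the libraries, and reached a mean of 10 CPM in the higher group. This rule was met by 204 genes higher and 177 genes lower with ENMD-2076. Levels are CPM scaled by the trimmed mean of M-values (TMM).

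Under this rule the largest difference was that of ENSG00000227234.1, which was higher with ENMD-2076. It was well covered in the ENMD-2076 5 µM libraries and had 3 reads or fewer in each of the others. Its level was 23.6 CPM in both ENMD-2076 5 µM libraries, from 317 and 568 reads, against 0.0755 and 0 CPM in the TAK901 2 µM libraries, from 1 and 0 reads. With ENMD-2076 2.5 µM it was at 0.124 and 0.147 CPM, with TAK901 1 µM at 0.0701 and 0 CPM, and both DMSO libraries had 0 reads. The groups of the comparison did not overlap, which the naming rule required, and the 8 libraries outside ENMD-2076 5 µM all lay near 0. The ratio of ENMD-2076 5 µM over TAK901 2 µM was 681-fold, with a 95% counting interval of 122 to 26900. In edgeR's test the log2 fold change was 9.12 ± 0.58 (SE; adjusted p = 2.7e-06), a fitted value that depends on the prior count because TAK901 2 µM had 1 read. With so few reads this SE, derived from the test statistic, understates the uncertainty that the counting interval shows. The fitted value was 11.61 without TAK901 2 µM replicate 1, which held that read, and 8.16 without replicate 2. At the lower doses the fitted log2 fold change was 1.72 ± 1.19 (adjusted p = 0.49), from 5 reads with ENMD-2076 2.5 µM and 1 read with TAK901 1 µM.

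The next in size among the higher genes that met the rule, ENSG00000100985.7, was low with TAK901 and near the DMSO level with ENMD-2076. It had 12.4 and 17.1 CPM in the ENMD-2076 5 µM libraries, against 1.96 and 2.63 CPM in the TAK901 2 µM libraries. It had 12.9 and 11.1 CPM with ENMD-2076 2.5 µM, 6.80 and 4.01 CPM with TAK901 1 µM, and 13.4 and 10.4 CPM with DMSO. All 4 TAK901 libraries lay below all ENMD-2076 and DMSO libraries. The log2 fold change was 2.68 ± 0.31 at the higher doses (SE; edgeR, adjusted p = 7.5e-05) and 1.16 ± 0.28 at the lower doses (adjusted p = 0.035). At the lower doses the call was lost without ENMD-2076 5 µM replicate 2, without either ENMD-2076 2.5 µM library and without TAK901 1 µM replicate 2 (edgeR, log2 fold change of 1.16, 1.04, 1.26 and 0.83, adjusted p of 0.051, 0.24, 0.14 and 0.28). Against DMSO it fell by 2.36 on the log2 scale with TAK901 2 µM (adjusted p = 7.9e-05), and with ENMD-2076 5 µM the log2 fold change was 0.32 (adjusted p = 0.55), both by edgeR with the same DMSO libraries.

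Among the genes lower with ENMD-2076 that met the rule, ENSG00000164344.11 differed most. It was at 0.0743 and 0.291 CPM in the ENMD-2076 5 µM libraries, from 8 reads in all, against 8.16 and 19.0 CPM in the TAK901 2 µM libraries. It was at 1.12 and 0.368 CPM with ENMD-2076 2.5 µM, at 5.61 and 6.22 CPM with TAK901 1 µM, and at 0.0754 and 0.0632 CPM with DMSO. All 4 TAK901 libraries lay above every other library, although the TAK901 2 µM replicates differed more than 2-fold from each other. The log2 fold change was -5.98 ± 0.62 at the higher doses (SE; edgeR, adjusted p = 3.6e-05) and -2.87 ± 0.52 at the lower doses (adjusted p = 0.0079). At the higher doses it was -6.45 without TAK901 2 µM replicate 1 and -5.24 without replicate 2, and -5.52 without ENMD-2076 5 µM replicate 1 and -7.38 without replicate 2. The call at the lower doses was lost without ENMD-2076 2.5 µM replicate 2 (log2 fold change of -2.39; edgeR, adjusted p = 0.089) and without TAK901 1 µM replicate 2 (-2.79; adjusted p = 0.055).

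The pattern of ENSG00000204382.7 was uneven across doses and replicates. It was at 0.297 and 0.208 CPM in the ENMD-2076 5 µM libraries, against 19.5 and 4.29 CPM in the TAK901 2 µM libraries. With ENMD-2076 2.5 µM it was at 2.73 CPM in replicate 1 and 0.0736 CPM in replicate 2, with TAK901 1 µM at 0.351 and 0.346 CPM, and with DMSO at 0.0754 and 0.443 CPM. The high values were thus those of the TAK901 2 µM libraries and, below them, 1 library of ENMD-2076 2.5 µM. The log2 fold change at the higher doses was -5.56 ± 1.07 (SE; edgeR, adjusted p = 0.0031), and it was -4.08 without TAK901 2 µM replicate 1 and -6.27 without replicate 2. The call was lost without ENMD-2076 5 µM replicate 2, with a log2 fold change of -5.29 (edgeR, adjusted p = 0.053). At the lower doses the log2 fold change was 2.11 ± 1.10 (adjusted p = 0.34) and rested on the 1 high ENMD-2076 2.5 µM library, without which it was -2.12 (adjusted p = 0.7), and the difference between the dose pairs did not pass the test (adjusted p = 0.19).

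**Figure D4:**
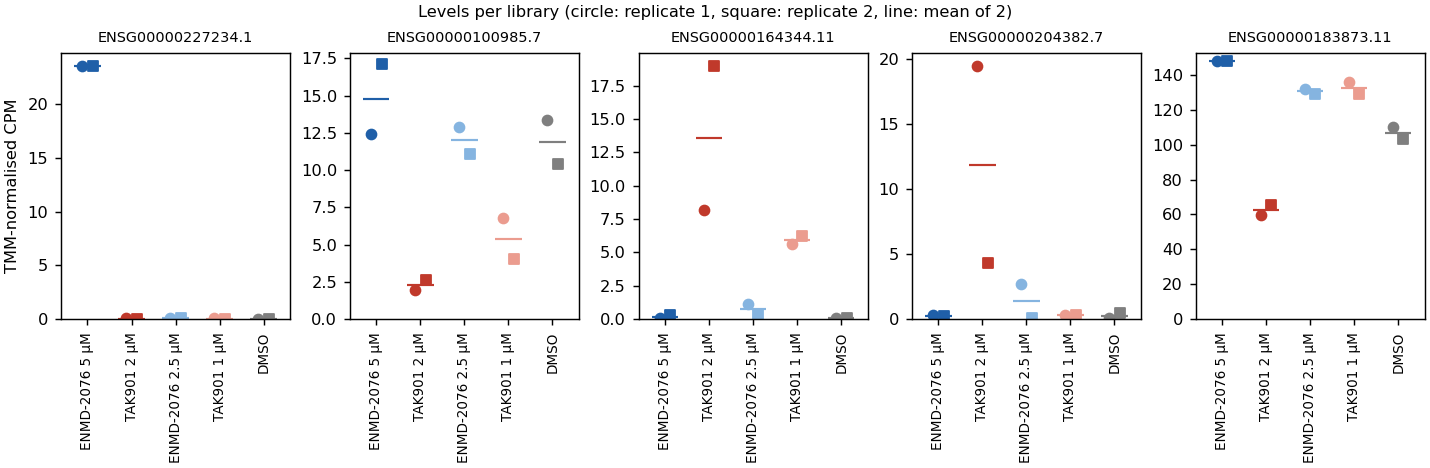
TMM-normalised CPM (linear axes starting at 0, a scale of its own in each panel) of 5 gene IDs in each MDA-MB-231 library, with circles for replicate 1, squares for replicate 2 and a line at the mean of the 2 libraries. ENSG00000227234.1 was at 23.6 CPM in both ENMD-2076 5 µM libraries and near 0 in the rest, and ENSG00000183873.11 was at 59.7 and 65.6 CPM in the TAK901 2 µM libraries and at 103 CPM or above in all others.

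Levels with the vehicle, DMSO, were closer to those with ENMD-2076 than to those with TAK901 in most called genes. The same TAK901 2 µM and ENMD-2076 5 µM libraries chose the genes, so these shares describe the called genes and are no test. The DMSO mean was nearer to the ENMD-2076 5 µM mean than to the TAK901 2 µM mean in 1308 of the 1477 higher genes (88.6%) and in 1002 of the 1095 lower genes (91.5%), beside 10324 of all 14826 genes (69.6%). In the higher genes the median log2 fold change over DMSO was -0.08 for ENMD-2076 5 µM and -0.75 for TAK901 2 µM. In the lower genes it was 0.02 for ENMD-2076 5 µM and 0.84 for TAK901 2 µM. Over all genes tested the median absolute log2 fold change over DMSO was 0.24 for ENMD-2076 5 µM and 0.42 for TAK901 2 µM. 

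The separate tests against DMSO, which share the DMSO libraries, gave 725 genes (4.89%) for ENMD-2076 5 µM, of which 400 (2.7%) were higher and 325 (2.19%) lower than in DMSO. This count was 82 or 67 when an ENMD-2076 5 µM library (replicate 1 or 2) was left out, 412 or 418 when an ENMD-2076 2.5 µM library was, and 79 or 151 when a DMSO library was. They gave 4623 genes (31.2%) for TAK901 2 µM, of which 2252 were higher and 2371 lower than in DMSO, and the count was 2893 or 2843 when DMSO replicate 1 or 2 was left out. When each comparison was fitted on its own 4 libraries, 2503 genes passed for ENMD-2076 5 µM and 2340 for TAK901 2 µM, so the order of these counts turned over. The count for ENMD-2076 5 µM was 2418 without TAK901 2 µM replicate 1 and 2420 without replicate 2, although these libraries are not part of that comparison. Leaving out a library changes the shared estimate of the spread, the genes tested and the scaling together, and their parts were not tested.

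The same compounds were also compared at their lower doses, in 4 other libraries. These libraries were part of the fit that called the genes above, through the spread, the scaling and the filter, but not of the fold changes at the higher doses. The count at the higher doses was 1959 or 1974 genes when an ENMD-2076 2.5 µM library (replicate 1 or 2) was left out and 2207 or 2220 when a TAK901 1 µM library was. Between ENMD-2076 2.5 µM and TAK901 1 µM, 574 genes (3.87%) passed edgeR's test, 359 (2.42%) higher and 215 (1.45%) lower with ENMD-2076. Of the 1477 genes higher with ENMD-2076 at the higher doses, 1378 (93.3%) had a positive log2 fold change at the lower doses too, and 309 (20.9%) passed the test the same way. Of the 1095 lower genes, 992 (90.6%) had a negative log2 fold change at the lower doses, and 147 (13.4%) passed the test the same way. Among the 12254 genes not called at the higher doses, 7839 (64.0%) had the same sign in both pairs. In the fit of all 10 libraries the shared genes made up 86.1% of the genes higher with ENMD-2076 at the lower doses and 68.4% of those lower. The number of shared genes was 456 in that fit, 384 with total count scaling and 633 with no low-count filter. It changed more widely with the library left out, so these shares hold for the fit of all 10 libraries only. No gene was called in opposite directions in the dose pairs in the fit of all 10 libraries. The lower-dose count was 99 when either ENMD-2076 2.5 µM library was left out, 127 or 143 when a TAK901 1 µM library (replicate 1 or 2) was, and 336 or 328 when an ENMD-2076 5 µM library was. Without a TAK901 2 µM library it was 2008 (replicate 1) or 2005 (replicate 2).

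In most called genes the log2 fold changes were smaller at the lower doses, and the change itself is tested further below. The median log2 fold change of the genes called higher was 0.67 for ENMD-2076 5 µM over TAK901 2 µM and 0.33 for ENMD-2076 2.5 µM over TAK901 1 µM. For the genes called lower it was -0.78 at the higher doses and -0.31 at the lower doses. The absolute value was smaller at the lower doses in 94.2% of the genes called higher and 93.1% of those called lower, beside 62.0% of all genes. The genes were chosen for their values at the higher doses, which by itself makes smaller values at the lower doses more frequent. The median absolute log2 difference between replicates was also larger for TAK901 2 µM (0.306) than for TAK901 1 µM (0.185). The part that this spread has in the sizes, also over all genes, was not tested. Across the 14826 genes, which are not independent replicates, Pearson's r between the log2 fold changes of the dose pairs was 0.429. Without TAK901 2 µM replicate 2, the share of called genes with the same sign at the lower doses was 75.7%, against 92.1% with all libraries and 93.8% without replicate 1.

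**Figure D5:**
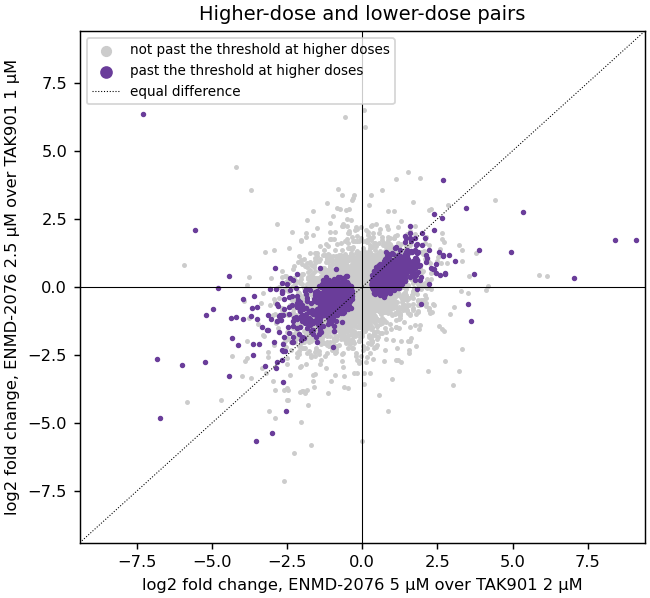
log2 fold change of ENMD-2076 2.5 µM over TAK901 1 µM (vertical axis) against log2 fold change of ENMD-2076 5 µM over TAK901 2 µM (horizontal axis), 1 point per gene tested, with genes past an adjusted p of 0.05 at the higher doses in purple and a dotted line of equal difference. Most purple points share their sign in both pairs (93.3% of the higher and 90.6% of the lower genes) and lie closer to 0 on the vertical axis.

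The number of called genes did not order the dose pairs in the same way under every fit. With each pair fitted on its own 4 libraries, 668 genes passed at the higher doses and 2004 at the lower doses. Of these, 344 genes were higher with ENMD-2076 in both pairs, 127 were lower in both, and 1 was called in opposite directions. The larger count was thus that of the lower doses in these fits, and that of the higher doses when all 10 libraries were fitted together.

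The change of the compound difference between dose pairs was tested directly, and 1 of 14826 genes (0.00674%) passed in edgeR's test, with 1452 genes at an unadjusted p under 0.05. DESeq2 called 44 genes for the same contrast, of the 5231 genes to which it gave an adjusted p. Without TAK901 2 µM replicate 1 the edgeR count was 129, and without replicate 2 it was 2223. Without any one of the 8 other libraries it was 0. The gene that passed was ENSG00000183873.11, which is named here because it was the only one and was thus chosen after its values were seen. It was at 148 and 148 CPM in the ENMD-2076 5 µM libraries, against 59.7 and 65.6 CPM in the TAK901 2 µM libraries. It was at 132 and 129 CPM with ENMD-2076 2.5 µM, at 136 and 129 CPM with TAK901 1 µM, and at 110 and 103 CPM with DMSO. The TAK901 2 µM libraries were therefore the lowest of the 10, and the lower-dose groups overlapped each other.

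The log2 fold change of ENSG00000183873.11 was 1.24 ± 0.11 at the higher doses (SE; edgeR, adjusted p = 9.2e-06) and -0.02 ± 0.11 at the lower doses (adjusted p = 0.95). The difference between these was 1.26 ± 0.15 (edgeR, adjusted p = 0.013). Against DMSO the log2 fold change was 0.47 with ENMD-2076 5 µM (edgeR, adjusted p = 0.022), and with TAK901 2 µM it fell by 0.77 on the log2 scale (adjusted p = 0.00014). The call against DMSO for ENMD-2076 5 µM was lost without any one of the ENMD-2076 5 µM, ENMD-2076 2.5 µM and DMSO libraries (log2 fold change of 0.42 to 0.52; adjusted p up to 0.21). The difference between the dose pairs no longer passed the test with only the groups compared (edgeR, adjusted p = 0.058) or without any one of the 8 libraries other than TAK901 2 µM, where the adjusted p reached 0.29.

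The cell-cycle position of the cultures was described with lists of human Ensembl IDs from the cell-cycle classifier of the scran package. Each list held the first genes of the classifier's pairs for 1 phase that were in no other phase. In bulk RNA, fewer cells in a phase and less RNA per cell cannot be told apart. Of 22 genes tested from the G1 list, 0 were higher and 2 lower with ENMD-2076 5 µM than with TAK901 2 µM, a share of 9.09% beside 17.3% of all genes, and the median log2 fold change was -0.19. Of 29 genes tested from the S-phase list, 7 were higher and 2 lower (31.0%), with a median of -0.06. Of 43 genes tested from the G2/M list, 5 were higher and 4 lower (20.9%), with a median of 0.01. The median over all genes tested was -0.02. The values of single members ranged from -1.99 to 0.27 in the G1 list, from -3.59 to 0.98 in the S list and from -1.14 to 0.83 in the G2/M list.

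The G1 list followed the TAK901 2 µM replicates. Its median was 0.12 without TAK901 2 µM replicate 1 and -0.33 without replicate 2, so its sign depended on 1 library, and its called genes numbered 7 of 22 without replicate 1, beside 18.7% of all genes in that fit, and 12 of 22 without replicate 2, beside 29.5% of all genes. Without TAK901 2 µM replicate 2, the S list had 16 called genes of 29 and the G2/M list 15 of 43, beside the same 29.5%. Without ENMD-2076 5 µM replicate 1, the G1, S and G2/M lists had 0, 3 and 5 called genes, beside 5.47% of all genes. Without ENMD-2076 5 µM replicate 2 they had 0, 1 and 4, beside 5.6%, and with only the 4 compared libraries 0, 2 and 4, beside 4.75%. The S median was 0.11 without TAK901 2 µM replicate 1 and 0.03 without TAK901 2 µM replicate 2. At the lower doses, 0 of the G1 genes were called, with a median of 0.11, and 2 genes of the S list and 2 of the G2/M list were higher with ENMD-2076 2.5 µM, with medians of 0.18 and -0.03. These were 0%, 6.9% and 4.65% of the lists, beside 3.87% of all genes. Against DMSO, ENMD-2076 5 µM had 0 higher and 1 lower gene in the G1 list (4.55%), 0 higher and 4 lower in the S list (13.8%) and 3 higher and 5 lower in the G2/M list (18.6%), beside 4.89% of all genes. Set against the same DMSO libraries, TAK901 2 µM had 3 higher and 3 lower genes in the G1 list (27.3%), 3 higher and 8 lower in the S list (37.9%) and 8 higher and 12 lower in the G2/M list (46.5%), beside 31.2% of all genes.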

How the data were processed

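Total RNA was isolated with TRIzol, and libraries were made with the NEBNext Ultra RNA kit and sequenced on an Illumina HiSeq, per the labels' protocols. The authors deposited raw read counts per gene, 1 table of 42713 Ensembl IDs per library, and all values were whole numbers. Tools named per the submitters' processing notes were HTSeq, TopHat, Bowtie, DESeq2 and FastQC 0.11.3, with builds hg38 and mm10. Strand, annotation and remaining versions are not given in the sources used.

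Groups were compound and dose as labelled. Genes passing filterByExpr (14826) were scaled by TMM and tested with edgeR 4.0.16 (R 4.3.3, limma 3.58.1) by quasi-likelihood in 1 fit of all 10 MDA-MB-231 libraries, two-sided, with Benjamini-Hochberg adjustment over the genes tested and a threshold of 0.05. SE was obtained as |log2 fold change| divided by √F. The 4T1 libraries were not used here. Alternatives were other scalings, no low-count filter, DESeq2 1.42.0, only the groups compared, each library left out and a replicate block. The method was tested on simulated counts. The simulation gave every group the same spread, so it does not cover the wider spread between the TAK901 2 µM libraries. No pair of the 45 library pairs agreed within sampling noise (chi-square per degree of freedom at least 4.43). TMM factors were 0.951 and 1.05 for TAK901 2 µM and 0.988 to 1.01 otherwise. Ratios with few reads carry 95% exact binomial intervals, which cover counting error only.

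The compared groups, lists and tests were chosen with earlier results of these data known. The naming rule asked for genes with a symbol. As no human symbols were used here, that condition was dropped and 2 IDs per direction are printed, and the symbol lists and marker checks were not analysed here. The cell-cycle lists, from scran 1.30.0, and the division by read count were added after the data had been seen.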

Additional observations from a re-analysis of the deposited data

Results flagged for a closer look

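The difference between the compounds changed between the dose pairs for ENSG00000183873.11, by 1.26 ± 0.15 on the log2 scale (SE; edgeR, adjusted p = 0.013). It was 148 ± 0.0719 CPM with ENMD-2076 5 µM and 62.6 ± 4.19 CPM with TAK901 2 µM (SD, n = 2 each), with both ENMD-2076 libraries above both TAK901 libraries. Over 16 alternatives the change ranged between 1.2 and 1.34, and it passed the threshold in 7 of them, with adjusted p between 4.5e-09 and 0.29.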

How the results depend on the processing

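For ENMD-2076 5 µM against TAK901 2 µM, the count of 2572 genes became 668 with only the groups compared and between 861 and 4612 when single libraries were left out. Rescaling, no low-count filter, DESeq2 and the replicate block left it between 2434 and 3062. For the lower doses, the count of 574 became 891 with no low-count filter and 2004 with only the groups compared, and it ranged between 99 and 2008 with single libraries left out. The difference between the dose pairs had 1 gene in the all-library fit, 289 with no low-count filter, 44 with DESeq2 and 0 with only the groups compared in edgeR (1323 at an unadjusted p under 0.05), and between 0 and 2223 with single libraries left out. Against DMSO, ENMD-2076 5 µM had 1100 genes with no low-count filter, 2503 with only the groups compared and between 67 and 2420 with single libraries left out. TAK901 2 µM had 2340 genes with only the groups compared and between 2843 and 5594 with single libraries left out.

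Replicate numbers paired the libraries weakly at most, as deviations of same-numbered libraries correlated between -0.0366 and 0.156. The correlation was 0.156 for TAK901 2 µM with TAK901 1 µM, 0.136 for TAK901 2 µM with DMSO and 0.0816 for TAK901 1 µM with DMSO. It was 0.0138 or less for every pair with an ENMD-2076 group. A part shared by the TAK901 and DMSO libraries of the same number was not tested. With the replicate block the counts were 2865 for ENMD-2076 5 µM against TAK901 2 µM, 673 at the lower doses, 7 for the difference between the dose pairs, 867 for ENMD-2076 5 µM against DMSO and 4838 for TAK901 2 µM against DMSO. The log2 fold changes of the 5 named IDs between ENMD-2076 5 µM and TAK901 2 µM kept their sign in all 16 alternatives. In each of these IDs the libraries of the compared groups did not overlap. Leaving out a library could thus not turn the sign, and the kept signs are no test. Their values at the lower doses and against DMSO were recomputed as alternatives chosen after seeing the data, and 6 values that were not past the threshold changed sign or reached 0. With single libraries left out, the lower-dose log2 fold change lay between -2.12 and 2.95 for ENSG00000204382.7 and between -0.05 and 0.02 for ENSG00000183873.11. Against DMSO it lay between -0.85 and 1.59 for ENSG00000204382.7 with ENMD-2076 5 µM and between 0 and 3.42 for ENSG00000227234.1 with TAK901 2 µM. The cause of the changes was not tested.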
